A study of Homo sapiens with 24 samples.

Results

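Older LINE-1 (L1) families are the L1 repeat families that stopped spreading before the youngest ones arose. They were taken here as the families of the repeat table whose name starts with L1, leaving out L1HS and L1PA2 to L1PA7. The rule gave 120 of the 1180 repeat families in the table, and 117 of them passed the filter on low values and were tested. L1P, L1P4b and L1P4c did not pass, with at most 7.2 scaled reads in any library. By name the 117 tested families fall into 11 L1PA families (L1PA8 to L1PA17), 8 L1PB, 10 other L1P, 12 L1MA, 7 L1MB, 11 L1MC, 6 L1MD, 27 L1ME and 25 other L1M families.

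Cells of UCSD-AML1 and of ELF-153, 2 human lines derived from acute myeloid leukaemia, were grown in medium with 20% serum and 5 ng/ml GM-CSF, a cytokine that myeloid cells need to grow. Cells were left untreated or received 100 nM DAC (decitabine) freshly on each of 4 days, and RNA was harvested at 96 h. DAC is a deoxycytidine analogue that dividing cells incorporate into DNA. There it binds DNA methyltransferases covalently, and cytosine methylation is not kept up in the daughter strands. Each of the 4 groups of line and treatment holds 3 libraries of total RNA depleted of ribosomal RNA. The labels call them technical triplicates, so every p-value below reflects variation among triplicates that may be technical, not among separate cultures. In bulk RNA a change in the number of cells of a type cannot be told apart from a change in RNA per cell.

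L1 is the autonomous retrotransposon of mammals: an intact copy carries an internal promoter in its 5′ part and encodes the proteins that copy its RNA back into DNA. Only the youngest human family, L1HS, still moves. L1PA8 and older L1PA families and the L1PB families spread in primates, and the L1MA to L1ME families are older and shared among mammals, L1ME being among the oldest. Most old copies are truncated and mutated, and many lie inside introns. DNA methylation, histone H3 lysine 9 methylation and KRAB zinc finger proteins are known to silence L1 promoters. A family's reads are summed over all its copies, and reads of a host transcript cannot be told apart here from reads of a transcript that starts in the element.

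In units of 1e6 reads, a library held 13.15 to 28.28 in its gene counts and 1.91 to 3.55 in its repeat counts, of which 72689 to 312533 lay on older L1 families. Levels are given as scaled reads: recovered reads of a family divided by the size factor of the gene table of the same library. Some libraries stood apart. Between replicates the chi-square per degree of freedom over repeat families was 1.61 to 2.98 in untreated UCSD-AML1 and 3.02 to 63.17 in the other groups, where 1 is counting error alone. The highest values involved ELF-153 DAC replicate 2, ELF-153 untreated replicate 1 and UCSD-AML1 DAC replicates 2 and 3. The share of gene-table reads on mitochondrial ribosomal RNA was higher in every treated library of both lines: 61.7 to 63.8% with DAC against 49.3 to 51.3% without in UCSD-AML1, and 37.3 to 49.8% against 13.1 to 35.0% in ELF-153. Of 8 blood and leukaemia markers, 7 were detected well enough to be tested, and MPO was at 0 to 0.872 scaled reads in all 12 libraries. EPCAM and MS4A1, markers of epithelium and B cells, had no read, but other markers of such lineages did. KRT8 and KRT18 were at 18.2 to 181 and 39.1 to 161 scaled reads over the 12 libraries, and PDGFRB at 128 to 404. CD3D, a lymphocyte marker, was at 140 ± 8.27 without and 195 ± 12.2 with DAC in ELF-153 (SD, n = 3). Summed epithelial and fibroblast markers were at 73 to 321 and 160 to 407 scaled reads over the libraries. Summed lymphocyte markers were at 1 to 21 in UCSD-AML1 and at 132 to 216 in ELF-153.

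Summed over the 120 families, older L1 reads did not separate treated from untreated libraries in either line. In UCSD-AML1 the sums were 213473, 219709 and 229283 scaled reads in untreated replicates 1, 2 and 3 and 241898, 184272 and 303557 with DAC. The untreated libraries lay close together (220822 ± 7964, SD, n = 3), while treated replicate 2 lay below all of them and treated replicates 1 and 3 above (243242 ± 59654, SD, n = 3). In ELF-153 the sums were 81422, 131739 and 103132 untreated and 116551, 247683 and 132720 with DAC. Treated replicate 1 lay below untreated replicate 2, and treated replicate 2 stood far above the rest. The ratio of treated to untreated means was 1.10 in UCSD-AML1 and 1.57 in ELF-153, and 1.18 in ELF-153 without treated replicate 2. For the 7 younger L1 families (L1HS and L1PA2 to L1PA7) the same ratios were 1.67 and 2.09.

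**Figure D1:**
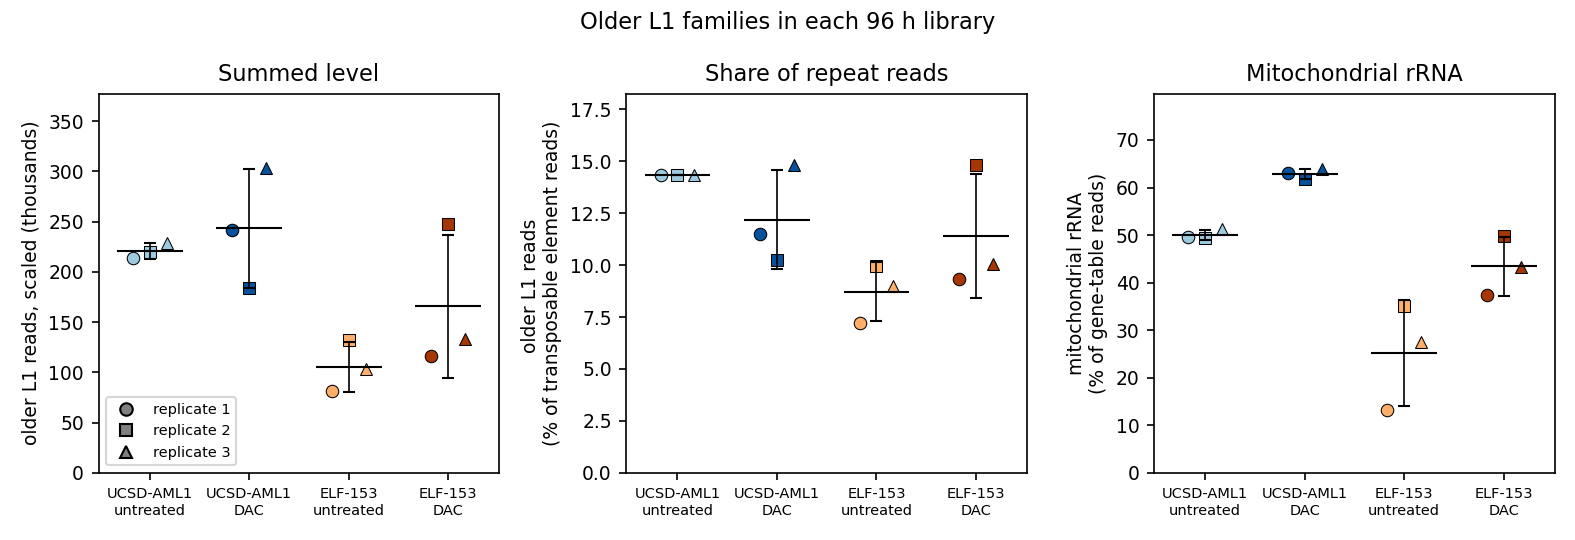
Older L1 reads in each of the 12 libraries as scaled sums (left) and as a percentage of transposable element reads (middle), beside the share of gene-table reads on mitochondrial ribosomal RNA (right); points are libraries, horizontal bars means and error bars SD (n = 3). The untreated UCSD-AML1 sums lie between 213473 and 229283, and within treated UCSD-AML1 and within both ELF-153 groups the library with the highest sum also has the highest mitochondrial share.

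As a share of all transposable element reads, older L1 held 14.33, 14.34 and 14.35% in untreated UCSD-AML1 and 11.49, 10.24 and 14.84% with DAC. In ELF-153 it held 7.21, 9.97 and 9.0% untreated and 9.34, 14.8 and 10.07% with DAC. The groups overlapped in both lines on this scale too. Within treated UCSD-AML1, untreated ELF-153 and treated ELF-153, the order of the 3 libraries by older L1 sum was the order by mitochondrial share. The share of non-mitochondrial reads on retained-intron transcripts was 3.15% in ELF-153 DAC replicate 2 against 2.61 and 2.67% in the other treated ELF-153 libraries, and 3.11% in UCSD-AML1 DAC replicate 2 against 4.24 and 3.90%. In untreated replicates 1, 2 and 3 this share was 3.49, 3.68 and 4.03% in UCSD-AML1 and 2.44, 2.78 and 2.53% in ELF-153. In both untreated groups and in treated ELF-153, the order of the libraries by older L1 sum was the order by this share. The treated UCSD-AML1 library with the lowest sum had the lowest share. The order did not hold at the upper end in treated UCSD-AML1. There, DAC replicate 3 had the highest sum with a share of 3.90%, below the 4.24% of replicate 1. The part of retained introns in the sums was not tested.

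In UCSD-AML1 a minority of older L1 families was higher with DAC. L1PBb, L1P2, L1M3e and L1MEa were more than 2 times higher in treated libraries by group mean, while families with the most reads, such as L1M5 and L1MB7, did not pass the test. By limma with Benjamini-Hochberg adjustment over 1047 repeat families, 14 of 117 older L1 families were higher and 1 was lower, against a background of 33.7% higher and 2.1% lower among all families tested. The median difference was 0.13 on the log2 scale for older L1 and 0.43 for all families. Treated and untreated libraries did not overlap for 26 families that were higher and 5 that were lower, where 52.3% and 5.83% of all families behaved so. The split depended on the scaling: with the repeat table as deposited, where the median of all families is 0.01 in place of 0.43, 12 older L1 families were higher and 46 lower, with a median of -0.30. With the mitochondrial share as a covariate 11 were higher and 35 lower (median -0.48), in a design in which that share and DAC move together and cannot be fully told apart.

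L1PBb showed the largest rise in UCSD-AML1 among the families with a mean of 50 or more scaled reads. Its level was 139, 170 and 169 scaled reads untreated and 486, 463 and 447 with DAC. All treated libraries lay far above all untreated ones, and the difference was 1.54 ± 0.16 (log2, SE; adjusted p = 1.26e-05, limma). L1P2 stood at 920, 900 and 1031 untreated and at 2331, 1869 and 2417 with DAC, again with no overlap (1.21 ± 0.24, adjusted p = 0.00197, limma).

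L1M3e and L1MEa, named as mammalian-wide families, were the next in size of difference. L1M3e was at 148, 157 and 176 scaled reads untreated and at 419, 345 and 338 with DAC (1.19 ± 0.16 log2, adjusted p = 0.000115, limma). L1MEa was at 90.2, 90.7 and 103 untreated and at 216, 196 and 225 with DAC (1.16 ± 0.19 log2, adjusted p = 0.000618, limma). Neither family's groups overlapped. L1M2a1, chosen after its values were seen because its mean lies under 50 scaled reads, had the largest difference of all tested older L1 families. It was at 13.6, 20.2 and 21.3 untreated and at 101, 66.3 and 78.7 with DAC (2.10 ± 0.27 log2, adjusted p = 9.96e-05, limma).

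L1P4a was the single family that fell in UCSD-AML1. It was at 459, 463 and 538 scaled reads untreated and at 311, 197 and 377 with DAC, with no overlap (-0.77 ± 0.26 log2, adjusted p = 0.0334, limma). The call was lost without any 1 of the 3 untreated libraries, without treated replicate 1 or 2, and under scaling to non-mitochondrial reads.

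**Figure D2:**
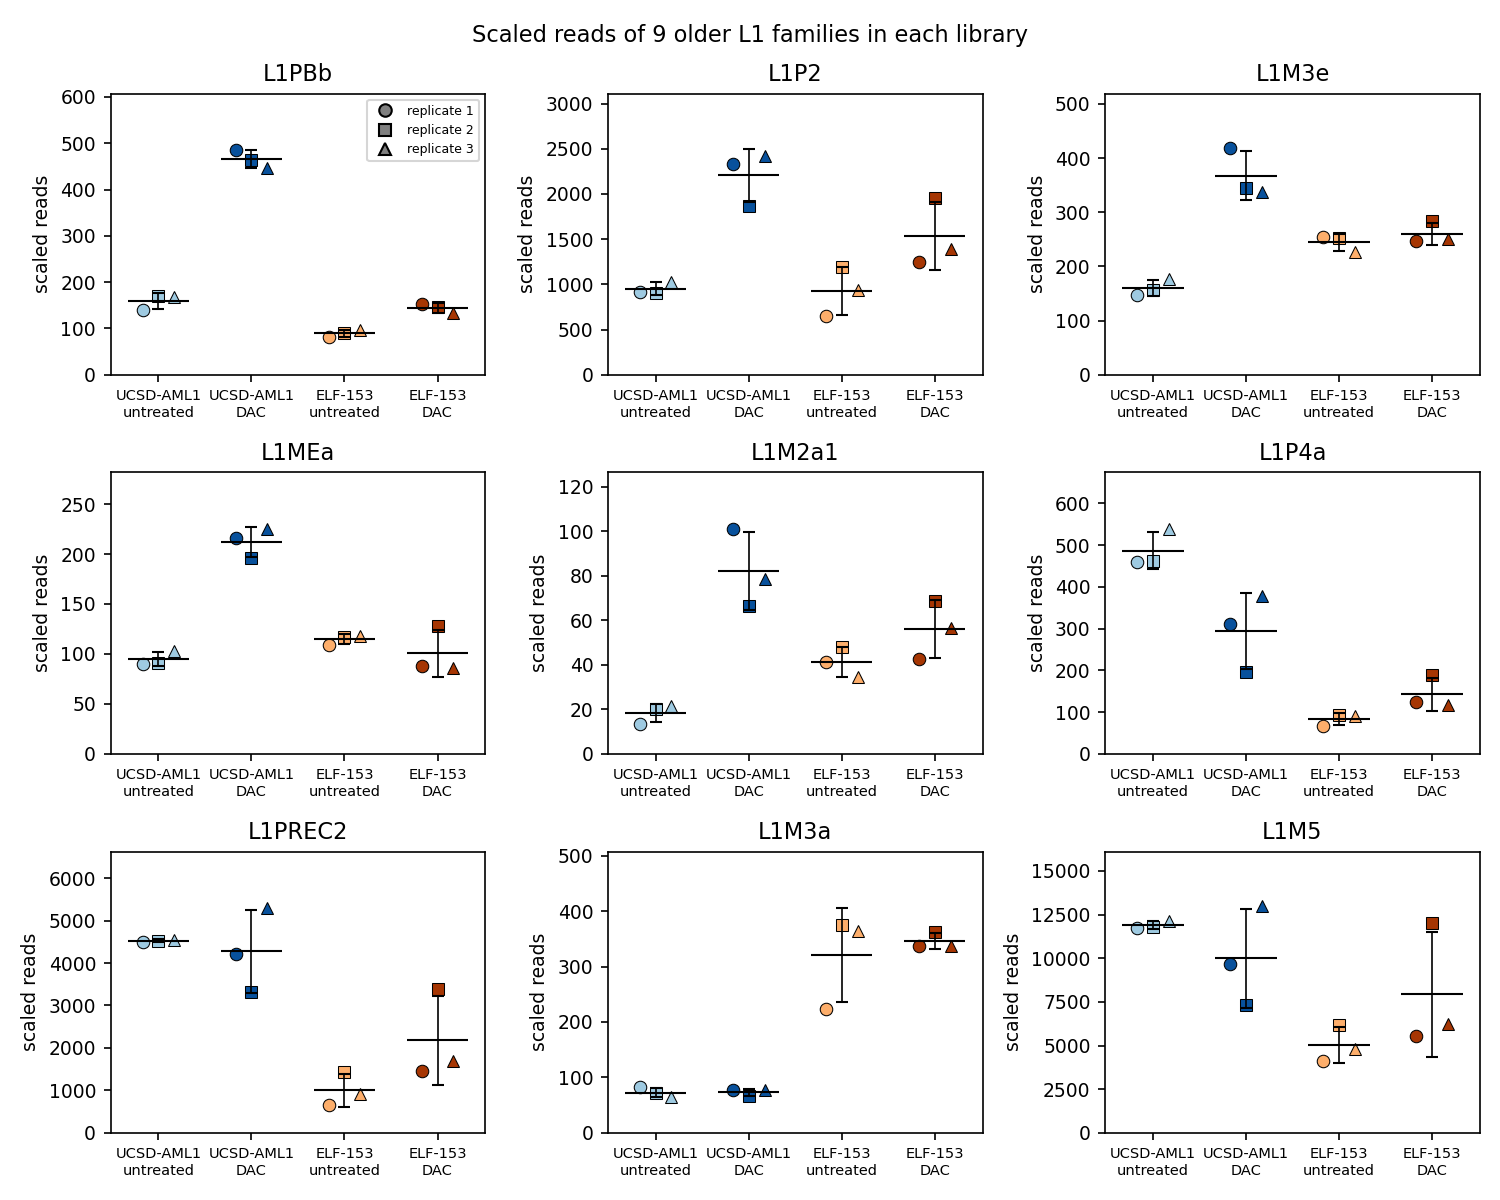
Scaled reads of 9 older L1 families in each library, by line and treatment; points are libraries, horizontal bars means and error bars SD (n = 3), and each panel has its own axis from 0. In UCSD-AML1 the treated libraries of L1PBb, L1P2, L1M3e, L1MEa and L1M2a1 lie above the untreated ones without overlap and those of L1P4a below, whereas L1M5 spans 7343 to 12981 with DAC around untreated values of 11725 to 12156.

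The 5 families with the most reads all carry L1M names, and none of them passed the test with DAC in either line. L1M5 was at 11725, 11806 and 12156 scaled reads without DAC and at 9670, 7343 and 12981 with it in UCSD-AML1 (-0.29 ± 0.28 log2, adjusted p = 0.463, limma). The treated libraries lay on both sides of the untreated ones. L1MB7, L1ME1, L1MC4 and L1ME4a had differences of 0.00 ± 0.26, 0.10 ± 0.29, -0.03 ± 0.27 and -0.22 ± 0.29 (log2, SE) in the same line, with overlapping groups. In ELF-153 the same 5 families had differences between 0.48 ± 0.26 (L1MB7) and 0.59 ± 0.28 (L1M5), with overlap and adjusted p from 0.117 to 0.155 (limma).

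By subgroup, the median differences in UCSD-AML1 were above 0.3 for each primate subgroup and at or below 0.16 for each mammalian-wide one. The median difference was 0.37 (log2) for L1PA8 to L1PA17, 0.35 for L1PB and 0.32 for other L1P families. It was -0.02 for L1MA, 0.00 for L1MB, 0.01 for L1MC, 0.00 for L1MD, 0.00 for L1ME and 0.16 for other L1M families. Of the 29 L1P families 7 rose and 1 fell, and of the 88 L1M families 7 rose and 0 fell. No L1MA, L1MB, L1MC or L1MD family passed the test in this line at an adjusted p under 0.05 on this scale. Of the 7 L1M families that rose, 6 carry names L1M1, L1M2 or L1M3 with or without a letter, and the other one was L1MEa.

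**Figure D3:**
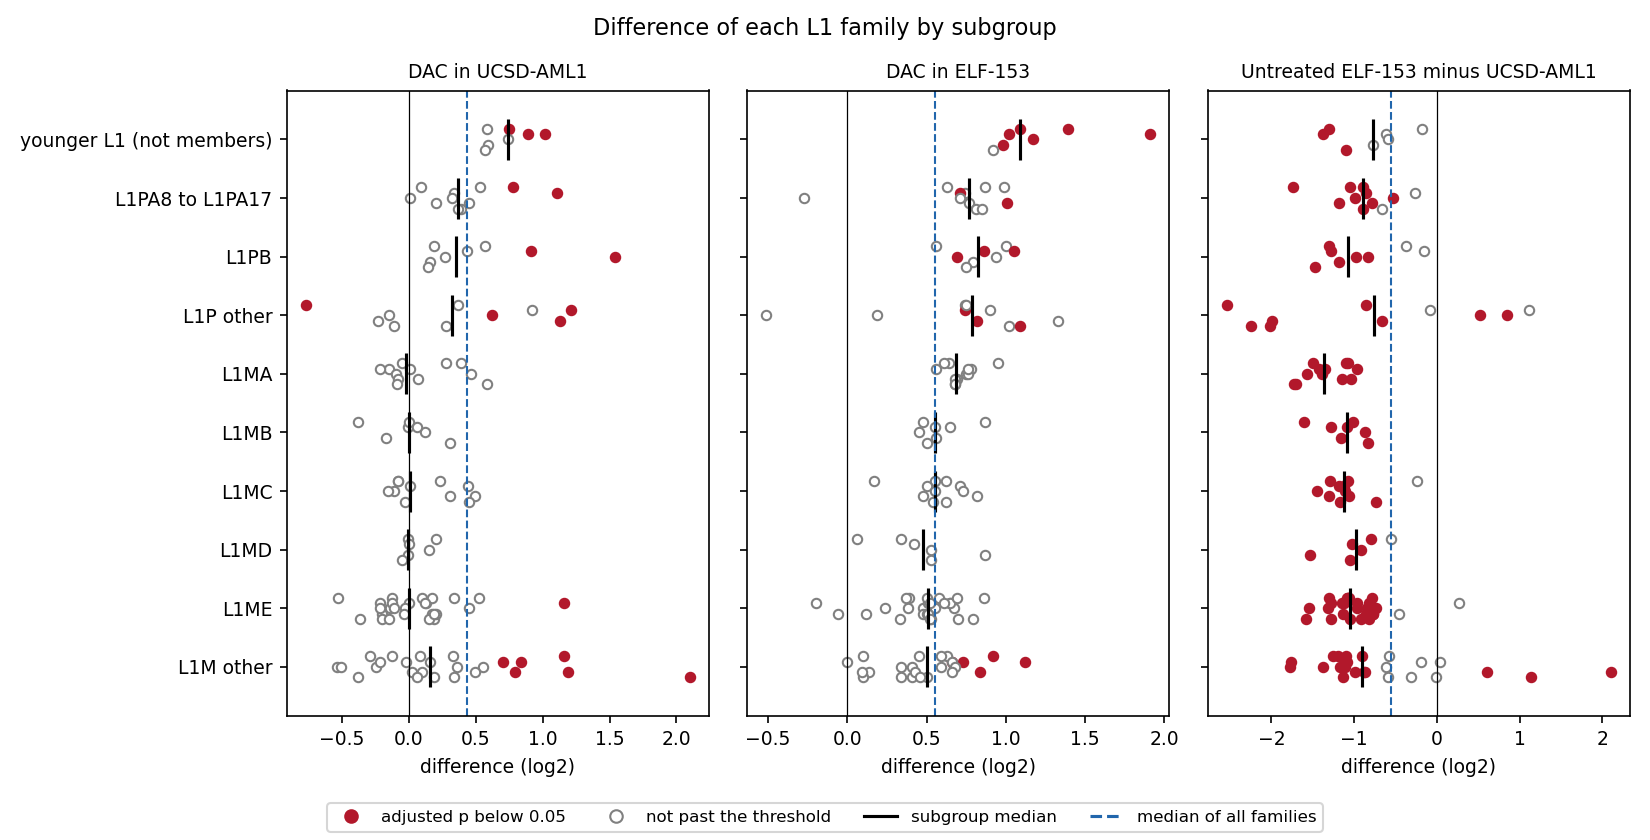
Difference (log2) of each tested L1 family by subgroup, for DAC against untreated in UCSD-AML1 (left), in ELF-153 (middle) and for untreated ELF-153 minus untreated UCSD-AML1 (right); filled points have an adjusted p under 0.05 (limma), black bars are subgroup medians and the dashed line is the median of all 1047 families. Subgroup medians with DAC lie between -0.02 and 0.37 in UCSD-AML1 and between 0.47 and 0.82 in ELF-153, with the younger L1 families at 0.74 and 1.09.

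Names with a lower-case letter directly after L1M2, L1M3, L1M4, L1MC, L1MD, L1ME, L1PB, L1P3 or L1P4 (L1PBb, L1M2a, L1MEa and the like) were set apart. This list of stems was chosen after values had been seen. Names such as L1MC4a and L1MC5a, with a digit between stem and letter, were counted among the other families. Neither of these was called with DAC in either line. In repeat libraries many such names are models of the 5′ part of an element whose 3′ part carries another name. Of 38 tested families with such names 9 rose and 1 fell in UCSD-AML1, and of the other 79 families 5 rose. In ELF-153 6 of the 38 and 7 of the 79 rose. The 38 families thus rose in 23.7% of cases in UCSD-AML1 and 15.8% in ELF-153. Among all families tested, 33.7% and 20.3% rose, so such names were called less often than repeat families at large. Among the 9 families higher in both lines, 6 have such names.

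In ELF-153, 13 of 117 older L1 families were higher with DAC and 0 were lower, against 20.3% and 0.764% of all families (limma). The fit on the 6 ELF-153 libraries alone kept 0 of the 13, scaling to non-mitochondrial reads kept 2, and fits that left out 1 library called 3 to 46. At an unadjusted p under 0.05, 45 families were higher and 1 was lower, and edgeR with the same size factors called 15 higher and 0 lower. The median difference was 0.62 (log2) for older L1 and 0.55 for all families. Libraries did not overlap for 21 families that were higher and 1 that was lower, against 31.1% and 1.91% of all families. With untreated replicate 1 and treated replicate 2 both left out, an alternative chosen after the data were seen, the median of older L1 was 0.10, that of all families was 0.13, and 3 families were called, all 3 of them among the 13. Without treated replicate 2 alone the median was 0.26 and 4 families were called. With the mitochondrial share as a covariate the median was -0.27 and 1 family was higher and 3 were lower, though that share and DAC move together in this line too. With the repeat table as deposited, where the median of all families is 0.00, 3 older L1 families were higher and 7 lower, with a median of 0.07.

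Among called families with a mean of 50 or more scaled reads, the 4 largest rises in ELF-153 were in families that did not pass the test in UCSD-AML1, and their libraries spread widely. None of these 4 families passed the test of the line difference in response. L1M6 was at 260, 614 and 446 scaled reads untreated and at 643, 1488 and 763 with DAC (1.12 ± 0.35 log2, adjusted p = 0.0412, limma). L1PREC2 was at 654, 1428 and 925 untreated and at 1461, 3378 and 1689 with DAC (1.09 ± 0.33, adjusted p = 0.0354, limma). In both families the lowest treated library lay just above the highest untreated one, and treated replicate 2 lay far above the other treated libraries.

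L1PB1 was at 1144, 2269 and 1577 untreated and at 2387, 5694 and 2661 with DAC (1.05 ± 0.33 log2, adjusted p = 0.0402, limma). L1PA17 was at 252, 525 and 385 untreated and at 549, 1226 and 623 with DAC (1.01 ± 0.32 log2, adjusted p = 0.0439, limma). Both families had groups that did not overlap, with treated replicate 2 the highest and untreated replicate 1 the lowest library. Each of these 4 calls was kept in 4 of the 12 fits that left out 1 library, and with the mitochondrial share as a covariate their differences were between -0.13 and -0.04.

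Of the 13 families called in ELF-153, L1PBb, L1PBa1 and L1M2b, picked for this after their values were seen, kept the call in all 12 fits that left out 1 library and in the fit without both libraries. L1PBb was at 80.7, 91.2 and 96.6 scaled reads untreated and at 153, 147 and 133 with DAC (0.69 ± 0.16 log2, adjusted p = 0.0112, limma). L1PBa1 was at 192, 207 and 179 untreated and at 325, 402 and 327 with DAC (0.86 ± 0.17, adjusted p = 0.00361, limma). L1M2b was at 73.9, 52.2 and 63.8 untreated and at 113, 143 and 106 with DAC (0.92 ± 0.22, adjusted p = 0.0112, limma). In these 3 families all treated libraries lay above all untreated ones. None of the 3 passed the test with the mitochondrial share as a covariate (0.57, 0.67 and 1.04), with the 6 ELF-153 libraries alone, with the repeat table as deposited, or with TMM by limma or edgeR and DESeq2, and the lowest differences over the alternatives were 0.14, 0.30 and 0.33.

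By subgroup the medians in ELF-153 were 0.77 (log2) for L1PA8 to L1PA17, 0.82 for L1PB, 0.78 for other L1P, 0.68 for L1MA, 0.55 for L1MB and L1MC, 0.47 for L1MD, 0.51 for L1ME and 0.50 for other L1M families. Of the 29 L1P families 8 rose, and of the 88 L1M families 5 rose. The families that rose among L1M were L1M1, L1M2a, L1M2b, L1M2c and L1M6. In both lines, then, calls lay among L1P, L1M1 to L1M6 and, for UCSD-AML1, L1MEa, and no family of L1MA to L1MD was called with DAC.

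Higher with DAC in both lines were 9 of the 117 older L1 families tested. Among all families tested 12% (126 of 1047) were higher in both, a larger share than 9 of 117. The 9 families are 64.3% of the older L1 list of UCSD-AML1 and 69.2% of that of ELF-153. For all families the respective values are 35.7% and 59.2%. Of the ELF-153 calls behind this overlap, 0 held with the 6 libraries alone or with the mitochondrial covariate, and 3 held without untreated replicate 1 and treated replicate 2. The 9 families were L1PBb, L1PBa1, L1P2, L1P3b, L1PA15-16, L1M1, L1M2a, L1M2b and L1M2c. L1PA15-16, for example, was at 166, 178 and 164 scaled reads without DAC and at 411, 319 and 374 with it in UCSD-AML1, and at 131, 164 and 128 without and 174, 346 and 204 with it in ELF-153. Its groups did not overlap in either line, though in ELF-153 the lowest treated library lay just above the highest untreated one and the call was kept in 2 of 12 fits without 1 library. L1M1, the family of the 9 with the most reads, was at 2635, 2651 and 2959 scaled reads without DAC and at 4759, 3622 and 5113 with it in UCSD-AML1, and at 1016, 1604 and 1304 without and 1711, 3039 and 1874 with it in ELF-153. Its differences of 0.70 ± 0.24 and 0.73 ± 0.24 (log2, SE) were close to the threshold (adjusted p = 0.0379 and 0.0474, limma), and the calls were kept in 6 (UCSD-AML1) and 3 (ELF-153) of 12 fits without 1 library. L1M2c and L1P3b had differences of 0.84 ± 0.20 and 1.13 ± 0.23 in UCSD-AML1 and of 0.66 ± 0.20 and 0.82 ± 0.23 in ELF-153, where the calls were kept in 5 and 9 of 12 such fits and in 7 of 15 alternatives each. No family was called in opposite directions. Called in UCSD-AML1 and not in ELF-153 were L1M2a1, L1M3e, L1MEa, L1P3 and L1PA10. L1PA10 was at 3017, 3397 and 3739 scaled reads without DAC and at 6375, 4621 and 6542 with it in UCSD-AML1 (0.78 ± 0.27 log2, adjusted p = 0.0419, limma). In ELF-153 it was at 1202, 2237 and 1598 without and 1938, 3751 and 2203 with DAC, with overlap (0.63 ± 0.27), so for this family the test of the line difference was not passed.

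**Figure D4:**
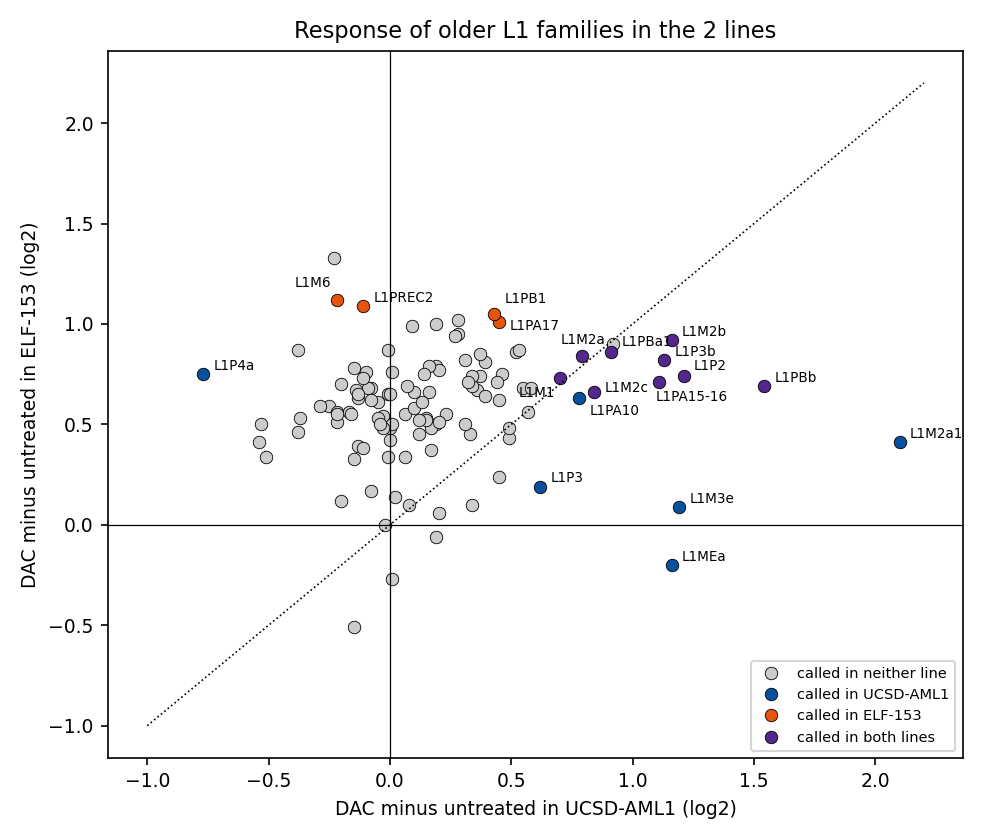
Difference with DAC (log2) of the 117 tested older L1 families in UCSD-AML1 (horizontal) and ELF-153 (vertical); colours give the line or lines in which the adjusted p was under 0.05 (limma), and the dotted line marks equal differences. The 9 families called in both lines lie to the right, most other families lie near 0 in UCSD-AML1 and near the ELF-153 median of 0.62, and L1M2a1, L1M3e, L1MEa and L1P4a lie far from the dotted line.

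The difference between the lines in their response was tested directly as an interaction (ELF-153 response minus UCSD-AML1 response). It was higher for 1 and lower for 3 of 117 families, against 1.34% and 3.15% of all families (limma), with a median of 0.48 (log2) for older L1 and 0.11 for all families. Without ELF-153 untreated replicate 1 and treated replicate 2 the median was -0.04, that of all families was -0.24, and 1 family was higher and 5 were lower. With the repeat table as deposited 22 were higher and 6 lower. Scaled to non-mitochondrial reads none was called, with 8 higher and 3 lower at an unadjusted p under 0.05 (limma).

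L1P4a had the positive difference (1.52 ± 0.36 log2, adjusted p = 0.0335, limma). It fell in UCSD-AML1, as given above, and in ELF-153 it was at 67.2, 92.2 and 91.1 scaled reads untreated and at 124, 188 and 116 with DAC (0.75 ± 0.26, adjusted p = 0.0556, limma). L1MEa and L1M3e had negative differences of -1.36 ± 0.27 and -1.10 ± 0.22 (log2, SE; adjusted p = 0.0119 and 0.0124, limma). In ELF-153 L1MEa was at 109, 117 and 118 untreated and at 88.1, 128 and 86.1 with DAC, and L1M3e was at 254, 252 and 227 untreated and at 247, 283 and 250 with DAC. The groups of both families overlapped in ELF-153.

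L1M2a1 was at 41.4, 48.1 and 34.6 untreated and at 42.6, 68.9 and 56.7 with DAC in ELF-153, and its difference between the lines was -1.69 ± 0.38 (log2, SE; adjusted p = 0.0254, limma). The calls of L1MEa were kept in all 12 fits that left out 1 library, those of L1M3e in 11, those of L1M2a1 in 6 and those of L1P4a in 5. At the other end, L1MC3 had the highest p of the interaction among families with 50 or more scaled reads. It was at 4117, 4218 and 4501 scaled reads untreated and at 6259, 5006 and 6859 with DAC in UCSD-AML1, and at 1563, 2650 and 2090 untreated and 2396, 3963 and 2492 with DAC in ELF-153, with differences of 0.49 ± 0.23 and 0.48 ± 0.23 (log2, SE) that did not pass the test.

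Without DAC, older L1 families were lower in ELF-153 than in UCSD-AML1. The summed level was 220822 ± 7964 in UCSD-AML1 and 105431 ± 25237 in ELF-153 (SD, n = 3), a ratio of 0.477, and every untreated ELF-153 library lay below every untreated UCSD-AML1 library. By family, 95 of 117 were lower and 5 higher in ELF-153, against 43.9% and 7.83% of all families (limma), and 100 were lower and 6 higher without overlap, against 51.7% and 10.2%. The median difference was -1.05 (log2) for older L1 and -0.55 for all families. The mitochondrial share was also lower in every untreated ELF-153 library, and with that share as a covariate the median was 0.15, with 5 families higher and 2 lower. Because the shares of the untreated lines do not overlap, this fit cannot fully tell share and line apart. Scaled by TMM over the repeat families, the median was -0.49 and that of all families -0.01, with 74 families lower and 13 higher.

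All 12 L1MA and all 7 L1MB families were lower in untreated ELF-153, with medians of -1.37 and -1.09 (log2). So were 9 of 11 L1PA families (-0.89), 6 of 8 L1PB (-1.08), 10 of 11 L1MC (-1.12), 5 of 6 L1MD (-0.97) and 25 of 27 L1ME families (-1.05). Of other L1P families 6 of 10 were lower and 2 higher (-0.76), and of other L1M families 15 of 25 were lower and 3 higher (-0.90), so these subgroups held all 5 higher calls. Among families with a mean of 50 or more scaled reads, L1P4a, L1PREC2, L1P4 and L1M3de had the largest negative differences. L1P4a was at 459, 463 and 538 scaled reads in UCSD-AML1 and at 67.2, 92.2 and 91.1 in ELF-153 (-2.54 ± 0.26 log2, adjusted p = 1.69e-05, limma), and L1PREC2 was at 4486, 4528 and 4553 and at 654, 1428 and 925 (-2.25 ± 0.33, adjusted p = 0.000341, limma). L1P4 and L1M3de had differences of -2.02 ± 0.42 and -1.78 ± 0.29. None of these 4 families had overlapping groups.

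L1M3a went the other way by the widest margin. It was at 81.8, 71.5 and 64.6 scaled reads in untreated UCSD-AML1 and at 223, 376 and 364 in untreated ELF-153 (2.10 ± 0.21 log2, adjusted p = 1.69e-05, limma). With DAC it was at 76.7, 66.3 and 76.7 in UCSD-AML1 and at 337, 362 and 338 in ELF-153, so that every treated library lay within the untreated range of its line. L1M3e and L1P3 were higher in ELF-153 by 0.61 ± 0.16 and 0.52 ± 0.20 (log2, SE; adjusted p = 0.0075 and 0.0432, limma). The call of L1P3 was kept in 5 of 12 fits without 1 library, and neither call held under scaling to non-mitochondrial reads, nor that of L1M3e with the mitochondrial covariate. The other 2 of the 5 higher families were L1M2a1 and L1P4e, both with a mean under 50 scaled reads.

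The make-up of older L1 RNA within a library does not depend on the scaling between libraries, and the shares of several subgroups differed between treated and untreated libraries. L1PB families held 3.57, 3.53 and 3.51% of older L1 reads without DAC and 4.41, 4.24 and 4.35% with it in UCSD-AML1. In ELF-153 they held 3.29, 3.72 and 3.34% untreated and 4.15, 4.51 and 4.12% with DAC. The groups did not overlap in either line, including the libraries that stood apart in their sums. An exact permutation test of 3 against 3 libraries cannot give a two-sided p below 0.1, so no p is given.

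L1ME families, the largest subgroup by number, held 28.83, 28.78 and 28.59% of older L1 reads without DAC and 26.75, 26.84 and 27.04% with it in UCSD-AML1. In ELF-153 they held 28.99, 28.48 and 28.96% untreated and 27.97, 28.16 and 27.76% with DAC, lower in every treated library of both lines. L1PA8 to L1PA17 rose in share from 8.29, 8.73 and 8.85% to 10.75, 10.53 and 9.88% in UCSD-AML1 without overlap, and in ELF-153 held 8.58, 9.81 and 9.26% untreated and 9.69, 10.16 and 10.15% with DAC, with overlap. Of the 9 subgroups, 4 had higher and 3 lower shares without overlap with DAC in UCSD-AML1, and 1 had a higher and 2 had lower shares in ELF-153. L1MB was the other subgroup whose share was lower in both lines, from 11.77 ± 0.08 to 11.21 ± 0.28% and from 12.31 ± 0.42 to 11.67 ± 0.07% (SD, n = 3).

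**Figure D5:**
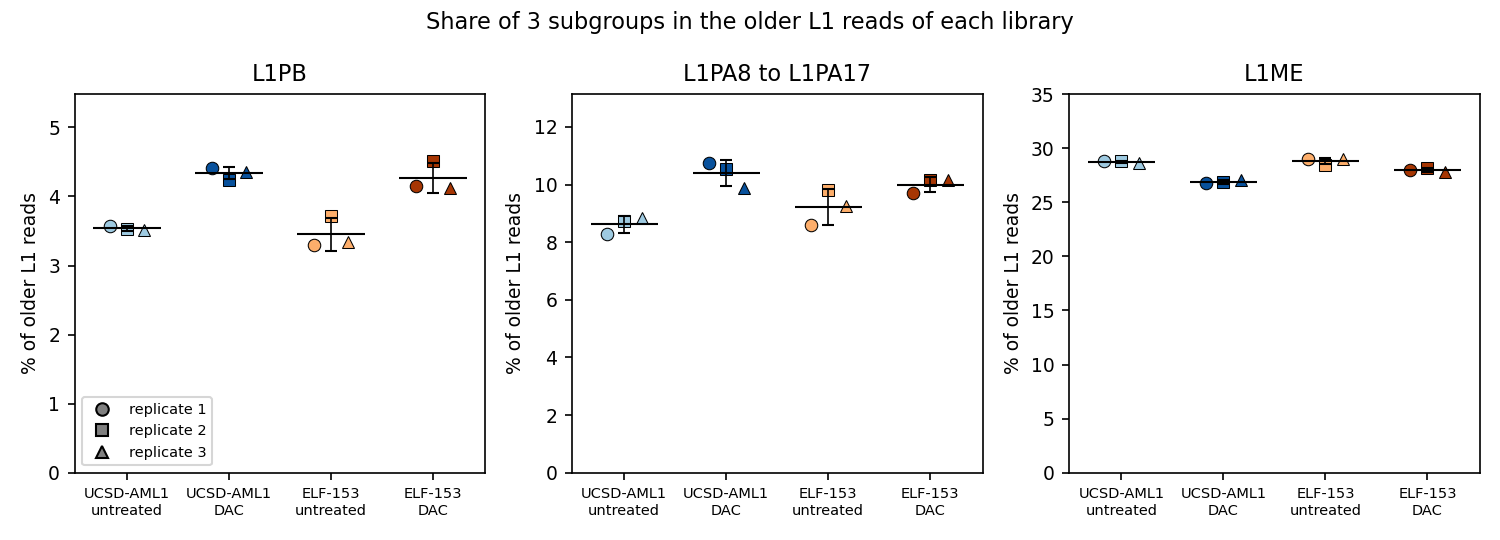
Share of L1PB, L1PA8 to L1PA17 and L1ME families in the older L1 reads of each library (percent); points are libraries, horizontal bars means and error bars SD (n = 3), and each axis starts at 0. The L1PB share is higher in all treated libraries of both lines (4.12 to 4.51%) than in untreated ones (3.29 to 3.72%), and the L1ME share is lower.

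At the edge of the rule, L1PA8 lies just inside and L1PA7 just outside, by name. L1PA8 was at 1422, 1628 and 1629 scaled reads without DAC and at 2157, 1571 and 2419 with it in UCSD-AML1, and at 543, 1234 and 888 without and 1011, 2543 and 1353 with it in ELF-153. Its groups overlapped in both lines. L1PA7 was at 7030, 7439 and 8085 without DAC and at 15442, 11123 and 15751 with it in UCSD-AML1, where the groups did not overlap, and at 1993, 4373 and 2742 without and 4274, 9211 and 5112 with it in ELF-153, where they did. Of the 7 younger L1 families 3 rose in UCSD-AML1 and 6 in ELF-153, against 33.7% and 20.3% of all families (limma). Their medians were 0.74 and 1.09 (log2). Treated libraries lay above untreated ones without overlap for 7 of them in UCSD-AML1 but for 3 in ELF-153, against 52.3% and 31.1% of all families. L2 and MIR families, which are older than primates as well, had medians of 0.19 and 0.27 in UCSD-AML1 and 0.40 and 0.25 in ELF-153. Alu families, which are primate-specific and short, had medians of 0.48 in UCSD-AML1, where 35 of 47 rose, and -0.08 in ELF-153.

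Genes known to control L1 were read from the gene table as a listed set. In the chromatin silencing list 19 genes were tested, of which 8 fell and 1 rose in UCSD-AML1 and 6 fell and 2 rose in ELF-153 with DAC. Among all 18799 genes and unmatched transcripts tested 19.6% fell and 19.7% rose in UCSD-AML1, and 12.7% fell and 20.1% rose in ELF-153 (limma). HELLS, a chromatin remodeller needed for DNA methylation of repeats, fell from 900 ± 37.8 to 32.2 ± 10.4 scaled reads in UCSD-AML1 and from 509 ± 75.1 to 159 ± 62.4 in ELF-153 (SD, n = 3; adjusted p = 3.32e-08 and 0.000316, limma). SUV39H1, a histone H3 lysine 9 methyltransferase, fell in both lines (-1.89 and -2.37 log2), as did DNMT1, the maintenance DNA methyltransferase (-1.12 and -1.27 log2). CBX5, which encodes a heterochromatin protein that binds methylated lysine 9, and DNMT3B, a de novo DNA methyltransferase, fell in both lines too. MORC2 rose in UCSD-AML1 and PPHLN1 and CBX1 in ELF-153, where CBX1 had 0.0 scaled reads untreated and 1.88 ± 1.00 with DAC.

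Among 12 tested genes that restrict L1 RNA or its DNA copy, 3 fell and 1 rose in UCSD-AML1, where 19.6% and 19.7% of all genes did so. In ELF-153 2 fell and 7 rose, against 12.7% and 20.1% of all genes (limma). SAMHD1, RNASEH2A and RNASEH2B fell in UCSD-AML1. In ELF-153 RNASEH2A and RNASEH2C fell, and SAMHD1, ZC3HAV1, ADAR, APOBEC3C, APOBEC3F and APOBEC3G were among those that rose. SAMHD1, which lowers the pool of nucleotides used for copying, fell from 1197 ± 139 to 735 ± 54.7 scaled reads in UCSD-AML1 and rose from 314 ± 39.0 to 1046 ± 95.1 in ELF-153 (SD, n = 3; adjusted p = 0.0036 and 2.04e-06, limma). RNASEH2A, a subunit of a ribonuclease that cuts RNA paired with DNA, fell in both lines. Of 9 listed genes of the germ-cell piRNA pathway, which silences transposons in the germ line, 5 passed the filter on low values, 4 of them only through treated libraries, so no count of rises is given. TDRD9 was at 155 ± 24.0 scaled reads untreated and 472 ± 23.2 with DAC in UCSD-AML1, and was at 0.0 in untreated ELF-153 libraries and at 315 ± 6.81 with DAC. Of the promoter factors YY1 and RUNX3, YY1 fell in ELF-153. Markers of megakaryocytes and red cells moved along with these changes in both lines, with summed levels of 50815 to 56598 scaled reads with DAC against 8231 to 9386 without in UCSD-AML1 and of 6819 to 10175 against 488 to 661 in ELF-153. Their part in the older L1 values was not tested.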

How the data were processed

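Total RNA depleted of ribosomal RNA was sequenced in pairs from stranded libraries, per the labels' protocols. Per the submitters' processing notes, the build was hg19 and the tools included STAR, TopHat2, DESeq2, HTSeq and FastQC, with no version given. The repeat annotation, the treatment of reads that map to several copies and the role of each tool are not given in the sources used here. The deposited values are a signal, reads per transcript or repeat family divided by 1 size factor per library. Each value divided by its library's step came out whole in 100% of cases (tolerance 0.01), which gave back the reads. In ELF-153 untreated replicate 2 the repeat step of 1.0054 lay near 1, so its division changed little.

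Repeat reads were multiplied by the step of the gene table, because a scaling made from repeats would centre their changes on 0. Differences were tested on log2(scaled reads + 1) by limma 3.58.1 under R 4.3.3 (means of 4 groups over 12 libraries, eBayes with trend and robust), with Benjamini-Hochberg adjustment over the families at 10 or more scaled reads in at least 3 libraries. The 7SK row and 22 satellite or simple repeat rows were left out. The plan named limma, with edgeR in its place had the tables held raw counts. Because the tables turned out to be scaled, edgeR served as an alternative on recovered reads (edgeR 4.0.16), beside DESeq2 1.42.0. Gene sums used GENCODE release 29 names, which matched 88.7% of 204940 transcripts. Figures used Python 3.11.15 and matplotlib 3.10.9. Scripts were tested on simulated data.

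Members, gene lists and tests were chosen with earlier results of these data known. Named families were, by rule, the 4 largest rises and falls of each comparison past adjusted p 0.05 with a mean of 50 or more scaled reads, the 5 families with the most reads, L1PA8 and L1PA7, and the highest interaction p. The 144 h libraries were not used here, and no L1 sequence or repeat position was used. Some genes of the lists are not reported here.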

Additional observations from a re-analysis of the deposited data

Results flagged for a closer look

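The response to DAC differed between the lines by the interaction test in 4 of 117 older L1 families (limma, adjusted over 1047 families), given as ELF-153 response minus UCSD-AML1 response on the log2 scale. By share, 0.9% of older L1 families were higher and 2.6% lower, against 1.3% and 3.2% of all families, so such calls were no more frequent than among repeat families at large. The differences were -1.69 for L1M2a1, -1.36 for L1MEa, -1.10 for L1M3e and 1.52 for L1P4a. L1M2a1, L1MEa and L1M3e were higher in all 3 treated UCSD-AML1 libraries than in any untreated one and had overlapping groups in ELF-153. L1P4a was lower in all 3 treated UCSD-AML1 libraries and higher in all 3 treated ELF-153 libraries. None of the 4 was called when reads were scaled to non-mitochondrial reads. Of 12 fits that left out 1 library, the call was kept in 12 for L1MEa, 11 for L1M3e, 6 for L1M2a1 and 5 for L1P4a.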

How the results depend on the processing

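Each comparison was recomputed under up to 15 alternatives and 12 fits that left out 1 library; counts are older L1 families higher and lower, and medians are log2 differences. In UCSD-AML1 with DAC (14 and 1, median 0.13), 46 were lower with the scaling as deposited (median -0.30), 40 with TMM over repeat families (-0.28), 40 with edgeR and TMM (-0.27), 44 with DESeq2 (-0.28) and 35 with the mitochondrial covariate (-0.48). Scaled to non-mitochondrial reads the counts were 9 and 0, with the 6 libraries of the comparison alone 24 and 4, and without ELF-153 untreated replicate 1 and DAC replicate 2 (chosen after seeing the data) 26 and 5. Leaving out 1 library gave 10 to 16 higher, 0 to 2 lower and medians of -0.04 to 0.30, the lowest without UCSD-AML1 DAC replicate 3.

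In ELF-153 with DAC (13 and 0, median 0.62) the counts were 3 and 7 as deposited (0.07), 4 and 6 with TMM (0.09), 4 and 5 with edgeR and TMM (0.11), 4 and 8 with DESeq2 (0.08) and 1 and 3 with the mitochondrial covariate (-0.27). The number higher was 2 scaled to non-mitochondrial reads, 0 with 6 libraries (limma; 22 at an unadjusted p under 0.05) and 3 without both libraries (0.10). Leaving out 1 library gave 3 to 46 higher, 0 lower and medians of 0.26 to 0.81: 3 without untreated 1 or DAC 3, 4 without untreated 3 or DAC 2, 46 without untreated 2, 42 without DAC 1, 4 without any 1 untreated UCSD-AML1 library and 5 without UCSD-AML1 DAC 1.

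The line difference in response (1 and 3, median 0.48) had 22 and 6 as deposited, 20 and 6 with TMM by limma or edgeR, 25 and 6 with DESeq2, 0 and 0 scaled to non-mitochondrial reads, 5 and 5 with the mitochondrial covariate, and 5 lower without both libraries (median -0.04). Leaving out 1 library gave 0 to 1 higher, 1 to 4 lower and medians of 0.13 to 0.66. Between untreated lines (5 and 95, median -1.05), 13 were higher with TMM (-0.49), edgeR and TMM (-0.49) and DESeq2 (-0.48), 2 scaled to non-mitochondrial reads and 3 at a mean of 50 or more; with the mitochondrial covariate 2 were lower (0.15). Leaving out 1 library gave 4 to 5 higher, 65 to 99 lower and medians of -1.23 to -0.87.

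Fits with the replicate number as a block gave 28 higher and 4 lower in UCSD-AML1, 94 higher in ELF-153 and 34 higher for the line difference. Deviations of same-numbered libraries correlated at -0.06, 0.06 and -0.02 in UCSD-AML1 and 0.30, 0.39 and -0.09 in ELF-153. Libraries with different numbers correlated at -0.07 to 0.12 in UCSD-AML1 and at -0.38 to 0.19 in ELF-153. The block had been planned as an alternative, and the main test did not pair the numbers. Whether they mark pairs in ELF-153 is not settled by these values, and the ELF-153 count (13 higher without the block, 94 with it) depends on this choice.

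With the mitochondrial covariate, ELF-153 differences reversed to -0.13 (L1M6), -0.10 (L1PA17), -0.04 (L1PB1) and -0.05 (L1PREC2). L1MB7 in UCSD-AML1 was at -0.44 as deposited, -0.41 with TMM and DESeq2 and -0.40 with edgeR and TMM. Over the single families named, 858 recomputed values kept direction and side of the threshold, 103 lost the call, 23 gained it and 8 reversed. In all alternatives and leave-one-out fits, 9 of the 14 higher calls of UCSD-AML1 were kept, 0 of its 1 lower, 0 of the 13 of ELF-153, 1 of 95 lower and 2 of 5 higher between untreated lines. Leaving out suffixed L1PA2 to L1PA7 names could not be applied, as there were 0. The cause of these shifts was not tested. Fewer than 50 reads limit the precision of families such as L1M2a1.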
